A study of Rattus norvegicus with 72 samples.

Results

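2-Nitrofluorene is a nitroarene, an aromatic hydrocarbon with a nitro group, which the study's design text lists among its genotoxic carcinogens. The comparison described here is 2-nitrofluorene (78 µM) against control after 72 h in primary rat hepatocytes, chosen by array title, and it holds 6 of the 72 arrays of the series. The 3 treated arrays (titled 2NF) and the 3 control arrays (shared with piperonyl butoxide and nifedipine) carry the replicate numbers 1, 2 and 3 and the D numbers 7, 8 and 9, which no label explains. The whole series exposed conventional monolayers of freshly isolated hepatocytes to 8 compounds for 24 h or 72 h and compared the profiles with rat liver, which is not analysed here. Every group, controls included, was plated in serum, moved to serum-free medium with hydrocortisone and insulin after 4 h, and exposed from the next day. The protocol names 3 independent biological experiments per compound. No label names the strain, sex or age of the rats or the vehicle given to controls. The arrays measure total RNA of the culture, so that other liver cells left in the preparation contribute to every value.

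The results centre on fatty acid genes, most of them known targets of PPARα, a nuclear receptor of hepatocytes that is activated by fatty acids and by fibrate drugs. PPARα pairs with the retinoid X receptor, binds direct repeats of a hexamer near its targets, and in rodent liver raises the genes that take up, activate and oxidise fatty acids in peroxisomes, mitochondria and the endoplasmic reticulum. 3 other responses are classically looked for after a nitroarene: the aryl hydrocarbon receptor (AhR), which planar aromatic compounds bind and which drives Cyp1a1; NRF2, which answers electrophiles; and p53, which answers DNA damage through Cdkn1a and Mdm2.

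The 6 arrays were alike in range. Their median signals lay between 19.8 and 22.04 intensity units, between 19.05% and 20.21% of probe sets lay at the floor of 3.117 units that was applied, and correlations between any 2 of them lay between 0.959 and 0.978. The log2 ratio of the 3′ to the 5′ probe sets of actin, a sign of RNA quality, was 0.748 to 1.10 on treated arrays and 0.628 to 0.752 on controls, and its part in the results was not tested. Hepatocyte markers were bright in both groups, as the labelled cell type has them. The summed signal of the 5 tested (Alb, Ttr, Apoa1, Cps1 and Hnf4a) was 18400 to 23340 on treated arrays and 16380 to 21510 on controls.

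Cells exposed to 2-nitrofluorene for 72 h had higher signals for enzymes of fatty acid oxidation, and more genes rose than fell when all groups of the series shared the estimate of the spread. Of 18048 probe sets tested, 146 (0.809%) passed an adjusted p of 0.05 in limma, and 126 of these were higher (0.698% of those tested) and 20 lower (0.111%). At an unadjusted p under 0.05 there were 1467. With the D number as a block (arrays of the same number deviated together) 235 rose (1.3%) and 70 fell (0.388%). All 146 calls were among these 305, and their sign could not change because the block leaves the log2 differences as they are. The split moved with the arrays in the fit and with the control group compared. With the arrays of D numbers 7 to 9 and the block, 581 rose and 425 fell. Against the 72 h controls of another compound (NNK, a tobacco nitrosamine), with all arrays in the fit, 346 rose and 244 fell. With the 6 arrays alone and the block falls outnumbered rises, 1653 to 1180. In genes with 1 symbol, 97 of 10178 rose and 18 fell, and 37 of the 97 were members of the lists of PPARα and fatty acid genes, which hold 94 genes, 84 on the array and 81 tested. These lists had a median log2 difference of 1.37 and 72 of 81 positive values, beside −0.06 and 4137 of 10178 over all genes. Their members were chosen with earlier results of these data known, so this is not an independent comparison. All 126 rises had every treated array above every control, a pattern seen in 8.75% of probe sets, and all 20 falls the reverse, seen in 13.6%. The count depends on each array. It was 39 without treated array 3, 60 without treated array 1, 161 without treated array 2, and 90, 52 and 89 without control arrays 1, 2 and 3, and the rises in PPARα lists were then 18, 22, 37, 30, 20 and 26.

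**Figure D1:**
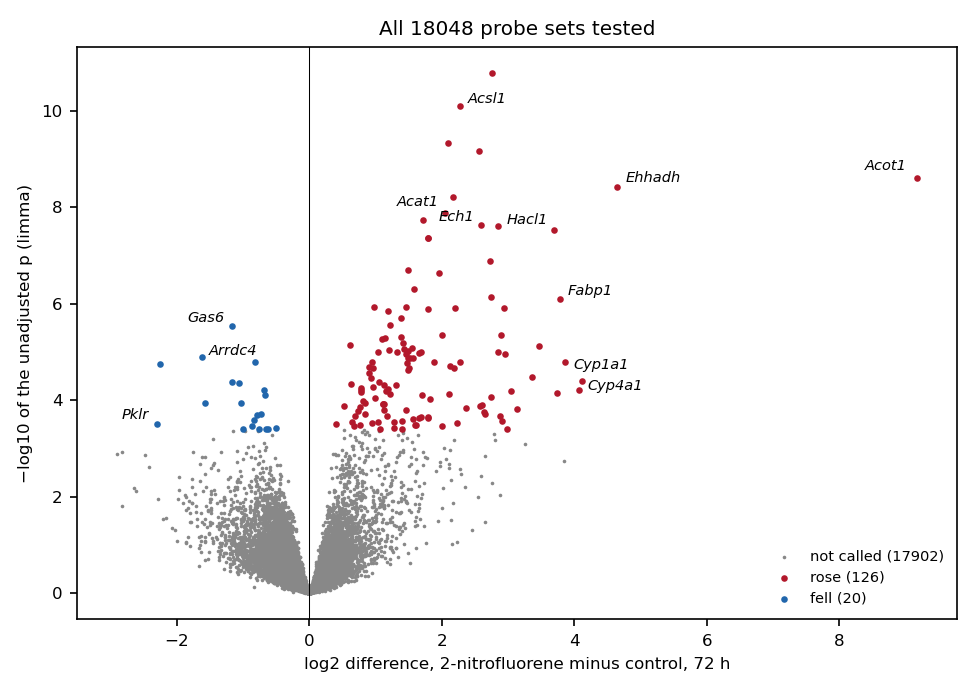
Each point is 1 of the 18048 probe sets tested, with the log2 difference between 2-nitrofluorene and control at 72 h on the horizontal axis and −log10 of the unadjusted limma p on the vertical axis; red points rose and blue points fell at an adjusted p under 0.05. The 126 rises reach a log2 difference of 9.17 (Acot1), while the 20 falls are fewer and smaller.

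Acyl-CoA thioesterases split fatty acyl-CoA into free acid and coenzyme A, and Acot1 held the largest difference of all. Acot1, the cytosolic form, read 1941, 1223 and 2950 on treated arrays 1 to 3 and 3.745, 1.534 and 2.91 on the controls, of which 2 lay below the floor. Every treated array was far above its control, and the log2 difference was 9.17 ± 1.27 (SE; limma adjusted p = 8.75e-06). The size of this value rests on the floor: it was 7.44 with a floor at the 40th percentile and 6.69 with log2 of the value plus 16, and the call held in both.

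Acot2, the mitochondrial form, read 1396, 925 and 1507 against 272.5, 241.8 and 301.9, a rise of 2.20 ± 0.40 (limma adjusted p = 0.000921). Acot4, which acts on dicarboxylic acyl-CoA in peroxisomes, read 577.7, 461.1 and 676.1 against 120.5, 92.55 and 142 (log2 difference 2.28 ± 0.48, limma adjusted p = 0.00515). In both genes the treated and control arrays were far apart. Another Acot2 probe set rose by 1.695 (limma adjusted p = 0.0345), and a further one, at 2.14, did not pass (0.516). Acot3, another peroxisomal form, rose by 1.82 ± 0.43 and Acot8, a broad peroxisomal thioesterase, by 1.48 ± 0.31. Of 7 members tested 5 rose; Acot12 (1.54, adjusted p = 0.285) and Acot7 (1.36, 0.116) did not pass, although Acot12 did with the D number as a block (limma adjusted p = 0.017). Acot1 and Acot2 kept their calls without any of the 6 arrays, while Acot4 lost its call without treated array 3 or control array 2 (highest adjusted p 0.0724), Acot8 also without treated array 1 (0.129), and Acot3 also without treated array 1 or control array 3 (0.135). Acot1 to Acot4 are close copies whose probes can share signal, and a probe set assigned to both Acot2 and Acot1 was higher by 4.12.

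The genes of these 4 enzymes lie side by side on rat chromosome 6, all on the plus strand, in RefSeq's annotation of GRCr8. Between the starts of Acot2 and Acot1 lie 24433 bases, between Acot1 and Acot4 32579, and between Acot4 and Acot3 13842. The 250 bases upstream of the 2 genes of this cluster with the most stable calls are shown because the cluster moved together, at chr6:109367024-109367273 for Acot1 and chr6:109342590-109342839 for Acot2; no letters are capitalised because neither of the searched motifs was found.
Acot1: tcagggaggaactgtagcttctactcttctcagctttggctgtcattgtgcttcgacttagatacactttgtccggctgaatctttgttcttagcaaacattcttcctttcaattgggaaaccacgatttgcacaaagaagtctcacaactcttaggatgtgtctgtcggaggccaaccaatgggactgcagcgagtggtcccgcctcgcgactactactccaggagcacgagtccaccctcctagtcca
Acot2: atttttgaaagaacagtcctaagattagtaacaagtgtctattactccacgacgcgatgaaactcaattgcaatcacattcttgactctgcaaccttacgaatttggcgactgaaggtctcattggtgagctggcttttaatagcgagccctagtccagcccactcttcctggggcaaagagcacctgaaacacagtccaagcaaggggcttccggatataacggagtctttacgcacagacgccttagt
The motifs searched on both strands were the direct repeat bound by PPARα, written AGGNCANAGGNCA, and the core bound by AhR, TNGCGTG. Among all 33469 upstream windows of 250 bases the repeat occurred in 123 (0.368%) and the AhR core in 1370 (4.09%). For the 97 risen genes 83 had windows, 90 in all, with the repeat in 1 (1.11%) and the AhR core in 5 (5.56%). Risen genes for which no window was available included Cyp1a1, Cyp4a1, Cpt1b, Ech1, Aqp7, Colq, Cyp17a1, Acaa2, Decr1 and Pc.

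The microsomal hydroxylases that start ω-oxidation, the oxidation of a fatty acid from its methyl end, included 2 of the strongest signals. Cyp4a1 read 5605, 3695 and 5650 on treated arrays against 377.8, 174.7 and 370.3, a log2 difference of 4.08 ± 0.94 (limma adjusted p = 0.0139). Cyp4a3 read 5194, 3785 and 3890 against 691.3, 324.9 and 492.8 (3.14 ± 0.77, limma adjusted p = 0.026). Treated array 2 was lowest in both, as was control array 2. Of 8 members tested these 2 rose and the others ranged from −1.02 (Cyp4a8) to 0.75 (Aldh3a2, an aldehyde dehydrogenase, limma adjusted p = 0.02 with the block). The 2 calls were sensitive to the arrays: Cyp4a1 lost its call without treated array 1, treated array 3 or control array 2 (highest adjusted p 0.158, log2 difference at least 3.71), and Cyp4a3 without any array but control array 1 (highest adjusted p 0.222) or with no filter (0.0514). The Cyp4a genes are close copies, so that the 2 values may share signal, and a probe set assigned to both Cyp4a3 and Cyp4a2 was higher by 2.98 (limma adjusted p = 0.0493).

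Peroxisomes shorten long and branched fatty acids, and 10 of the 15 peroxisomal members tested rose (median 1.22). Ehhadh, the bifunctional enzyme of the inducible peroxisomal pathway, read 4546, 3182 and 6025 against 175.6, 99.16 and 316.6. The groups were far apart, and the log2 difference was 4.65 ± 0.66 (limma adjusted p = 1.14e-05). Pex11a, a membrane protein that drives division of peroxisomes, read 998.3, 683.5 and 1371 against 147.1, 116.3 and 184.5 (2.74 ± 0.49, limma adjusted p = 0.0007). Crat, carnitine acetyltransferase, read 636.4, 349.1 and 800.2 against 124.8, 56.19 and 88.37 (2.72 ± 0.45, limma adjusted p = 0.000152).

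Ech1, an isomerase for unsaturated fatty acids, rose by 2.59 ± 0.39. Acsl1, which activates long fatty acids to acyl-CoA, gave the smallest adjusted p of the named genes: it read 4007, 2973 and 4409 against 789.2, 732.4 and 794 (2.28 ± 0.28, limma adjusted p = 6.97e-07). Decr2, the peroxisomal dienoyl-CoA reductase, rose by 2.01, Hsd17b4, the second bifunctional enzyme, by 1.22, and catalase (Cat), which breaks down the hydrogen peroxide of the pathway, by 0.94. Pex19 (1.11) and Pex16 (1.04), which place peroxisomal membrane proteins, rose as well. A probe set shared by Acaa1b and Acaa1a, copies of the peroxisomal thiolase, read 5780, 4206 and 5333 against 809.5, 785.1 and 1004 (2.56 ± 0.34, limma adjusted p = 3.12e-06). Crot (1.37), Eci2 (1.05, 0.042 with the block), Abcd3 (0.74) and Scp2 (0.39) did not pass. Ehhadh, Pex11a, Crat, Ech1, Acsl1, Decr2 and Hsd17b4 kept their calls without any of the 6 arrays. Cat lost its call without treated array 1 or 3 or control array 1 or 2 (highest adjusted p 0.101), Pex19 without treated array 1 or 3 or control array 2 or 3 (0.286), and Pex16 without any array but treated array 2 (0.427), with no filter (0.0669) and with only the 6 arrays (0.0613). Another Pex16 probe set differed by 0.20 (0.954).

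Mitochondrial β-oxidation rose over most of its steps, with 10 of 14 members called, a median of 1.44 and a largest difference of 1.80. Acadm, the medium-chain acyl-CoA dehydrogenase, read 3067, 2094 and 3288 against 848.4, 656.8 and 902.1 (1.80 ± 0.28, limma adjusted p = 5.56e-05). Decr1, the mitochondrial dienoyl-CoA reductase, read 3889, 2870 and 3793 against 1127, 815.8 and 1091, also 1.80 ± 0.28. Treated array 2 was the lowest of its group in both genes and still above all controls. Hadha and Hadhb, the α and β subunits of the trifunctional protein of long-chain β-oxidation, rose by 1.58 ± 0.28 and 1.14 ± 0.22. Hadhb read 3123, 2778 and 3288 against 1437, 1311 and 1408.

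Eci1, an enoyl-CoA isomerase, rose by 1.71, Hadh, the short-chain hydroxyacyl-CoA dehydrogenase, by 1.50, and Acads, the short-chain acyl-CoA dehydrogenase, by 1.49. Etfdh, which passes the electrons to ubiquinone, rose by 1.39, Acadvl, the very-long-chain dehydrogenase, by 1.20, and Acaa2, the last thiolase, by 1.80. The members that did not pass were Echs1 (0.73), Acadl (0.67), Etfb (0.54) and Etfa (0.52), and the last 3 passed with the D number as a block (limma adjusted p of 0.042, 0.04 and 0.039). Without 1 of the arrays, Acadvl lost its call (treated array 3, adjusted p = 0.0549), as did Acads (treated array 3 or control array 2, up to 0.0855), Hadh (treated array 1 or 3 or control array 2, up to 0.089) and Acaa2 (treated array 1 or 3 or control array 2 or 3, up to 0.489). Acaa2 also lost it with no filter (0.0673) and with only the 6 arrays (0.077). Other probe sets of Hadh (1.53) and Acaa2 (1.92) did not pass (limma adjusted p of 0.117 and 0.178). That of Acaa2 did with the block (0.037).

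Hadha and Hadhb are arranged head to head. On GRCr8 300 bases lie between their starts on chromosome 6, with Hadha on the plus strand and Hadhb on the minus strand, and their upstream windows share 200 bases. The 250 bases before Hadha (chr6:31907551-31907800, plus strand, RefSeq) are shown because both genes rose; they hold neither motif.
Hadha: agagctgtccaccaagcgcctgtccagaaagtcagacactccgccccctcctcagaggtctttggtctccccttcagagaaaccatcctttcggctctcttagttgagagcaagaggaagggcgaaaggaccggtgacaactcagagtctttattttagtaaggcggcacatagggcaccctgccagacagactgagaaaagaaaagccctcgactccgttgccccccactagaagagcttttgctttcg

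The carnitine shuttle, which carries fatty acids into mitochondria, had 2 of 5 members called. Cpt1b, the carnitine palmitoyltransferase better known from muscle, read 214.8, 165.1 and 306.9 against 22.63, 13.09 and 16.97, a rise of 3.69 ± 0.57 (limma adjusted p = 4.52e-05). Slc25a20, the carnitine-acylcarnitine carrier, rose by 1.46 (without treated array 3 its adjusted p was 0.055). Cpt1a, the liver form, differed by 1.41 and did not pass (limma adjusted p = 0.0991), nor did Cpt2 (1.35, 0.0597; 0.013 with the block) or the carnitine importer Slc22a5 (0.96). Of 3 ketone body genes tested, Acat1, the thiolase that supplies acetoacetyl-CoA, read 2497, 1587 and 2425 against 608.6, 456.8 and 479.6 and rose by 2.06 ± 0.31 (limma adjusted p = 2.98e-05). Bdh1, which reduces acetoacetate, differed by 1.00 without passing, and by only 0.0999 against the NNK controls.

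Fatty acid uptake and storage was led by Fabp1, the fatty acid binding protein of the liver cytosol. It read 3377, 2836 and 6425 against 218.1, 227.5 and 479.1, a rise of 3.78 ± 0.67 (limma adjusted p = 0.000731), and array 3 was the highest in both groups. Of 15 members tested 4 rose. Plin2, which coats lipid droplets, read 4074, 3494 and 3959 against 2308, 2228 and 2175 (0.78 ± 0.18), and it lost its call without treated array 1 or 3 or control array 2 or 3 (highest adjusted p 0.114) and against the NNK controls (0.56, 0.0643). Another Plin2 probe set, at 0.83, did not pass (0.421). Cidea, another droplet protein, rose by 1.60 and Slc27a2, a fatty acid transporter with acyl-CoA synthetase activity, by 1.40; each lost its call without any array but treated array 2 (highest adjusted p 0.592 and 0.312) and with no filter (0.078 and 0.0697). Cidea also lost it with quantile normalization (0.0673), no trend (0.0518) and only the 6 arrays in the fit (0.136). Cd36, the fatty acid translocase, read 1164, 1259 and 1099 against 260.2, 215.4 and 173.7, with no overlap, and did not pass with the spread shared by all groups (2.46 ± 1.22, limma adjusted p = 0.613).

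The upstream window of Fabp1 was the only one of a risen gene with the direct repeat, and it is shown for that reason (chr4:104749090-104749339, GRCr8, plus strand, RefSeq). The capitals mark the repeat, read on the opposite strand from −77 to −65 relative to the start.
Fabp1: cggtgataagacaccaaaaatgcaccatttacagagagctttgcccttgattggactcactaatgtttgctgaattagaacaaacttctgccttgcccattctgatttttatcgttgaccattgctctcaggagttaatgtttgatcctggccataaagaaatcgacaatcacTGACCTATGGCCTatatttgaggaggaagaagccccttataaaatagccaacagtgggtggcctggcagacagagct

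Among 14 signals and switches that answer PPARα, 3 rose. Pdk4, the kinase that shuts off pyruvate oxidation, read 564.3, 498.8 and 1051 against 52.6, 46.94 and 49.6 (3.75 ± 0.87, limma adjusted p = 0.015), and another Pdk4 probe set rose by 2.85 (0.0041). Aqp7, a glycerol channel, read 163.9, 104.8 and 163 against 19.75, 28.08 and 16.57 (2.75, limma adjusted p = 0.0168), and Creb3l3, a liver transcription factor of fasting, rose by 1.28 (0.0403). Neither group overlapped in these genes. Pdk4 and Aqp7 each lost their call without any array but treated array 2 (highest adjusted p 0.164 and 0.129), and Creb3l3 without any array (0.246), with no filter (0.0697) and with quantile normalization (0.0721). Angptl4, a secreted inhibitor of lipoprotein lipase, read 1395, 1290 and 1514 against 590.8, 624.6 and 393.6 and did not pass (1.41, limma adjusted p = 0.554). G0s2, an inhibitor of lipolysis, differed by 2.13 (limma adjusted p = 0.0997, and 0.0047 with the block). Fgf21, a hormone of fasting, differed by −0.02 (a log2 difference of 0.048 with quantile normalization) and was called in 0 of 19 alternative fits. The signal of Ppara itself lay below the table's median of 19.74 on all 6 arrays, and its difference of 1.95 did not pass.

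**Figure D2:**
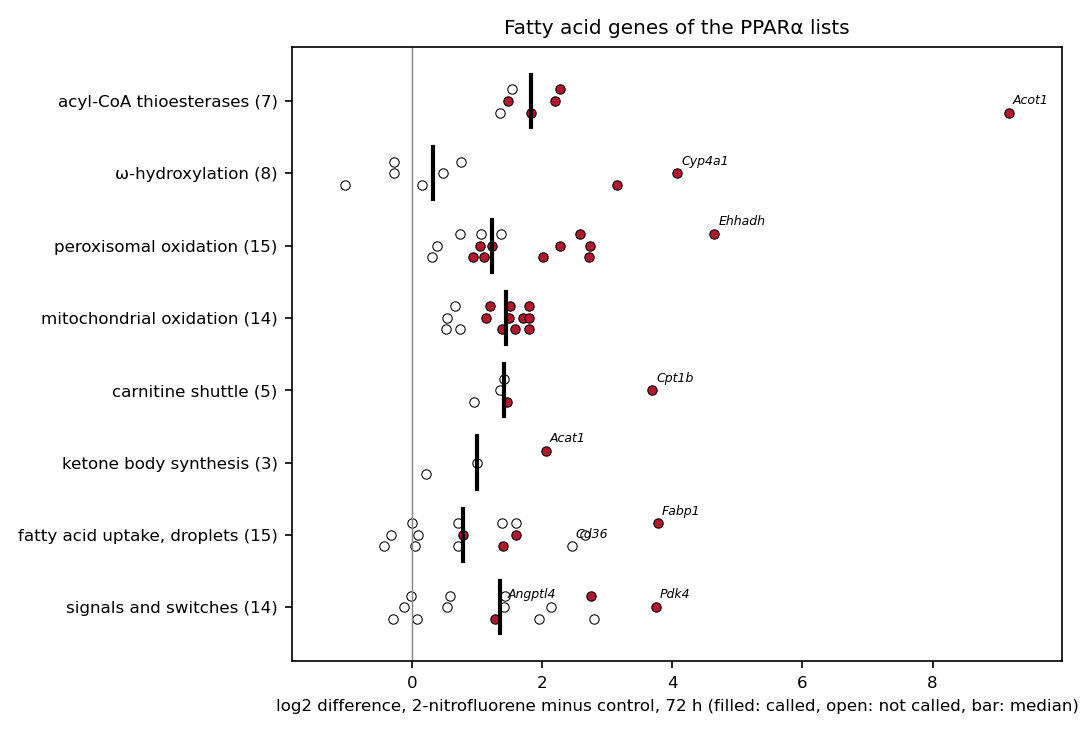
Each point is a gene, placed at its log2 difference between 2-nitrofluorene and control at 72 h; filled points passed an adjusted p of 0.05, open points did not, and bars are the medians of the 8 lists, with the number of genes in brackets. The members of mitochondrial oxidation lie close together between 0.52 and 1.80, while thioesterases, ω-hydroxylation and uptake spread over several log2 units.

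The AhR list showed a single call among 8 members tested, beside 97 rises among all 10178 genes. It was Cyp1a1, a P450 that oxidises planar aromatic compounds. Cyp1a1 read 1739, 2516 and 1318 on treated arrays against 102.9, 122 and 148.1, with a rise of 3.87 ± 0.81 (limma adjusted p = 0.00515). The call held without any of the 6 arrays, with 3.62 to 4.09 and a highest adjusted p of 0.0434. The other 7 of 8 members tested did not pass. Cyp1a2, a related P450, differed by 1.49 (0.797), Nqo1, a quinone reductase, by 0.78 (0.785) Cyp1b1, another of that family, by 0.18, and Tiparp, a feedback inhibitor of AhR, by 0.08 (0.976).

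In the NRF2 list 3 of 28 genes rose, beside 97 of 10178 over all genes, and all 3 are enzymes of detoxication. Akr7a3, an aldehyde reductase known for aflatoxin dialdehyde, read 2857, 2937 and 2841 against 800.4, 814.4 and 1165 (1.66 ± 0.34, limma adjusted p = 0.00417), and the call held without any array. Gsta4, a glutathione transferase for lipid aldehydes, rose by 1.33 ± 0.27 (without control array 2 its adjusted p was 0.0791). Gstp1, a transferase known from rat liver foci, read 1329, 2784 and 1181 against 355.1, 699.1 and 276.4, with array 2 highest in both groups, and rose by 2.00 ± 0.52 (0.0451). It lost its call without any array but control array 2 (highest adjusted p 0.252), with no filter (0.0786), quantile normalization (0.0642), no trend (0.0518) or only the 6 arrays (0.0524), and against the NNK controls (1.44, 0.121). Genes more typical of NRF2 that did not pass were Hmox1, heme oxygenase (1.18), Gclc, which starts glutathione synthesis (0.41), and Srxn1, sulfiredoxin (0.28). A probe set assigned to both Gsta5 and Gsta2, glutathione transferases, read 6281, 4916 and 5198 against 2019, 1379 and 2034. It rose by 1.61 (limma adjusted p = 0.0437). A probe set assigned to both Prdx1l1 and Prdx1 rose by 0.40 (limma adjusted p = 0.0421). Neither signal can be given to a single gene.

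Targets of the receptors CAR and PXR did not pass the test in limma (0 of 17, with 4 higher and 1 lower at an unadjusted p under 0.05). Over all 10178 genes 97 rose and 18 fell, and 497 were higher and 511 lower at that unadjusted threshold. Cyp3a2, a P450 of the male rat liver, read 1547, 432.9 and 2652 against 203.5, 75.21 and 367.9 and differed by 2.77 ± 0.95 (limma adjusted p = 0.25; 0.033 with the block). A probe set assigned to both Cyp2b2 and Cyp2b1 read 1316, 786.3 and 2098 against 220.5, 105.2 and 236.8 and rose by 2.88 (0.0327), but its signal cannot be given to either copy. Among 17 constitutive P450 genes 1 rose: Cyp2j4, which acts on arachidonic acid, by 1.88 ± 0.40 (limma adjusted p = 0.00515; up to 0.129 without treated array 1 or 3 or control array 2). Cyp2c11, the main male P450 of rat liver, read 99.99, 170 and 290.7 against 476.7, 992.8 and 1829, a difference of −2.48 that did not pass (limma adjusted p = 0.115) but did in 6 of 19 alternative fits, among them the fit with the block (0.018).

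Genes of the p53 list did not pass. Of 25 p53 targets tested, limma called 0, beside 97 rises and 18 falls among all 10178 genes. A count of 0 of 25 lies near that share. At an unadjusted p under 0.05, 4 were higher and 2 lower, beside 497 and 511 of 10178. Their median was 0.02, and with the block 1 passed (Ei24). Outside the list Tp53i13, named after p53 and picked after its value was seen, rose. With 1 array left out it differed by 1.36 to 1.71, and lost its call without treated array 1 or 3 (limma adjusted p up to 0.0699). Cdkn1a, the p21 inhibitor of cell division, read 721.9, 622.6 and 652.6 on treated arrays against 588.2, 550.1 and 613 (0.19 ± 0.21, limma adjusted p = 0.923). Mdm2, which degrades p53, read 319.8, 303.4 and 260.7 against 238.9, 298.1 and 227.9 (0.21 ± 0.30, limma adjusted p = 0.954), and its groups overlapped. Ccng1 differed by −0.05 and Gdf15 by 0.44. Of 30 DNA repair genes 0 were called by limma, with 2 higher and 1 lower at an unadjusted p under 0.05. The counts over all genes are those given above.

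Cell cycle genes were lower on most arrays without passing. Of 24 tested, limma called 0 (0 higher and 5 lower at an unadjusted p under 0.05), 21 were lower in all 3 D numbers (3404 of 10178 over all genes), and 16 had every treated array below every control, a pattern found in 13.6% of all probe sets. The median was −0.68, beside −0.06 over all genes. Over all genes 511 of 10178 were lower at an unadjusted p under 0.05. Mki67, a marker of dividing cells, read 2.452, 11.23 and 9.371 against 20.35, 30.92 and 18.73 (−1.72, limma adjusted p = 0.327), and Ccna2, cyclin A2, differed by −1.81 (0.379).

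**Figure D3:**
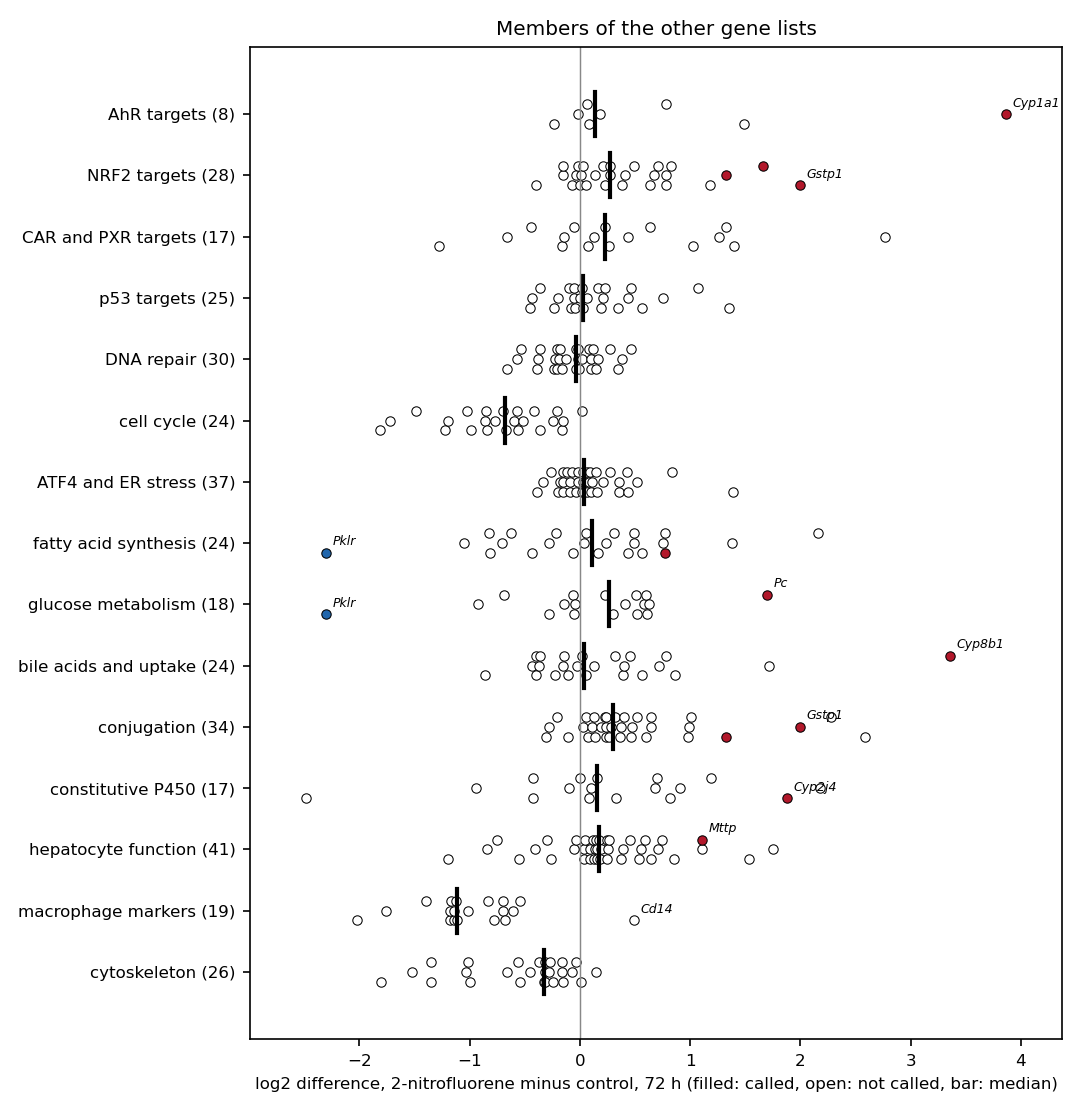
Each point is a gene of the other lists at its log2 difference between 2-nitrofluorene and control at 72 h; filled points passed an adjusted p of 0.05 and bars are medians. The called genes, such as Cyp1a1 (3.87), Cyp8b1 (3.36) and Pklr (−2.30), stand apart from medians near 0, while cell cycle genes and macrophage markers have medians of −0.68 and −1.11.

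Bile acid, glucose and lipoprotein genes each held 1 or 2 calls. Cyp8b1, the sterol 12α-hydroxylase of bile acid synthesis, read 418.2, 228.6 and 470.2 against 36.31, 19.74 and 58.48 and rose by 3.36 ± 0.74 (limma adjusted p = 0.00883; up to 0.147 without treated array 1 or 3 or control array 2). It was the only 1 of 24 in its list to pass, beside 97 rises and 18 falls among all 10178 genes. Pc, pyruvate carboxylase, which feeds gluconeogenesis, read 351.8, 318.3 and 483.2 against 119.8, 95.4 and 139.2 (1.70 ± 0.40, limma adjusted p = 0.0161; up to 0.181 without treated array 1 or 3 or control array 1 or 2).

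Pklr, the liver pyruvate kinase at the end of glycolysis, moved down: it read 55.64, 108.7 and 164.6 against 343.5, 558 and 621.2 (−2.30 ± 0.59, limma adjusted p = 0.0421). Its call was lost without any of the 6 arrays (highest adjusted p 0.452), with no filter (0.076) and against the NNK controls (−1.55, 0.149), and another Pklr probe set, at −2.83, did not pass (0.105). Slc2a2, the liver glucose transporter, read 1225, 1649 and 1516 against 2684, 2879 and 2689, −0.92, and did not pass (limma adjusted p = 0.0908) but did in 7 of 19 alternative fits, among them those with the block (0.036) and with quantile normalization (0.0257). Of 24 fatty acid synthesis genes Agpat2, a step of triglyceride synthesis, rose by 0.77 (0.0437; up to 0.484 without any array but treated array 2; 0.0665 with no filter, 0.0514 with no trend and 0.121 with only the 6 arrays) and Pklr, also in that list, fell. Of 41 hepatocyte genes Mttp, which loads lipid onto lipoproteins, rose by 1.11 ± 0.27 (limma adjusted p = 0.0218; up to 0.164 without treated array 1 or 3 or control array 1 or 2), reading 1113, 1022 and 1196 against 479.2, 479.5 and 589. Alb, albumin, differed by 0.05 (−0.12 with quantile normalization). Among all 10178 genes 97 rose and 18 fell.

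Several of the largest rises lay outside the lists. Hacl1, a peroxisomal lyase of fatty acid α-oxidation, read 1625, 633.9 and 2043 against 196.9, 118.1 and 238.4 (2.86 ± 0.44, limma adjusted p = 4.07e-05). Spc24, a kinetochore protein, read 534.1, 218.5 and 535.8 against 55.05, 43.88 and 56.76 (2.94 ± 0.54, limma adjusted p = 0.000921). Both calls held without any array, and treated array 2 was the lowest of its group in each. Nim1k, a protein kinase, read 98.98, 49.07 and 146.3 against 11.1, 5.91 and 7.965 (3.47 ± 0.70, limma adjusted p = 0.00361), and Colq, the collagen tail of acetylcholinesterase, rose by 2.96 and Cacna2d3, a calcium channel subunit, by 2.90.

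Without treated array 3 these last 3 missed the threshold (adjusted p of 0.0699, 0.0855 and 0.0584), and Cacna2d3, with dim signals, lost its call with a floor at the 40th percentile (1.19, adjusted p = 0.0686) and kept it at 1.15 with log2 of the value plus 16. Fer1l5, a ferlin, read 167, 176.9 and 210.6 against 20.25, 29 and 25.22 (2.90, limma adjusted p = 0.0402) and lost its call without any array (up to 0.216) or with no filter (0.072). Cyp17a1, the steroid 17α-hydroxylase, rose by 2.57 (limma adjusted p = 0.0235; up to 0.172 without any array but treated array 2), yet against the 72 h controls of NNK it differed by only 0.60 (0.698) and against both control groups by 1.58 (0.139). Further rises with calls that held under every alternative fit were chosen after their values were seen. They were Retsat, retinol saturase (2.17), Gk, glycerol kinase (1.96), Pank1, a kinase that starts coenzyme A synthesis (1.79), Ppm1k, the phosphatase that activates branched-chain amino acid breakdown (1.49), and Lonp2, the peroxisomal Lon protease (0.98).

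**Figure D4:**
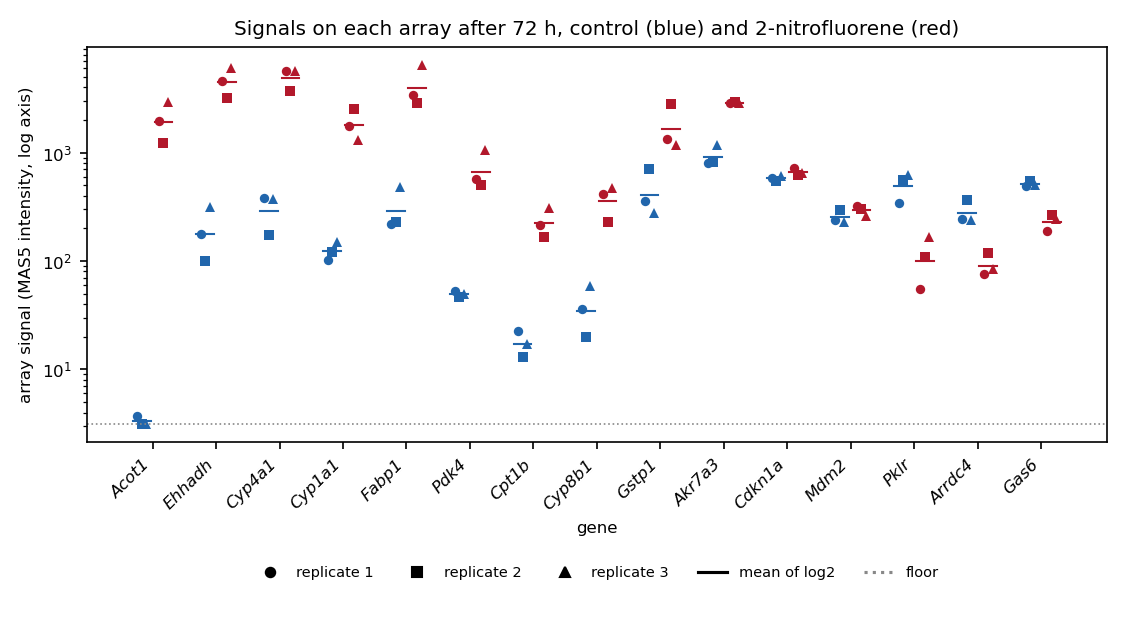
Points are the signals of each of the 6 arrays on a log axis, blue for control and red for 2-nitrofluorene at 72 h, with symbols for replicates 1 to 3 and lines for the means of log2. The first 10 genes have red points above blue, Cdkn1a and Mdm2 lie close together, and Pklr, Arrdc4 and Gas6 are lower in the treated cells.

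The 18 falls were smaller, and most lay outside the lists. Gas6, a ligand of the TAM receptors, read 187.8, 264.4 and 245.6 against 491.1, 550.4 and 506.8 (−1.16 ± 0.22, limma adjusted p = 0.00183), and was the only fall to keep its call without any array. The 2 other Gas6 probe sets differed by 0.35 and −0.47 and did not pass (0.951 and 0.83). Arrdc4, an arrestin-like gene driven by glucose sensing, read 75.22, 117.4 and 84.08 against 244.9, 363.1 and 237.6 (−1.61 ± 0.33, limma adjusted p = 0.00467; up to 0.0903 without treated array 1 or 3 or control array 2). Slc16a12, a creatine transporter, fell by 1.17 on the log2 scale (up to 0.161 without treated array 1 or 3 or control array 2 or 3; another probe set, at −0.79, did not pass), and Tbkbp1, an adaptor of TBK1, by 1.58 (up to 0.249, lost without any array). The other falls ranged from −1.05 (Slc41a3) to −0.50 (Ube2e3, 0.0572 with no filter and 0.0597 with no trend), apart from Pklr above.

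Markers of other liver cells were examined next to these falls, and limma called 0 of them in the lists of macrophages, stellate cells, endothelium and bile duct, with and without the block. Of 24 macrophage markers 21 were on the array and 19 tested; limma called 0 (0 higher and 6 lower at an unadjusted p under 0.05), 18 were lower in all 3 D numbers, beside 3404 of 10178 over all genes, and the median was −1.11. Their summed signal was 682.8 to 1651 on treated arrays and 1264 to 2915 on controls, with none of them at the floor throughout. C1qa, a complement component of resident macrophages, read 21.14, 113 and 42.77 against 80.73, 216.7 and 106.7, while Cd14, also expressed by hepatocytes, differed by 0.49. In bulk RNA, fewer cells of a type and less RNA per cell cannot be told apart. Summed signals of 13 stellate markers were 533.1 to 1347 against 863.8 to 2017, of 9 endothelial markers 154 to 286.5 against 158.1 to 286.1, and of 6 bile duct markers 804.9 to 1032 against 1092 to 1460. Over all genes 497 of 10178 were higher and 511 lower at an unadjusted p under 0.05. The part of these markers in the falls was not tested.

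At 24 h the same compound gave 204 calls in limma, and only Abca8a passed the test of a difference between the times. The arrays of the 2 times are different but share D numbers. Of the 126 rises at 72 h, 68 were also called at 24 h, beside 143 rises at 24 h among all 18048 probe sets. Of the 20 falls, 3 were also called at 24 h, beside 61 falls among all. The direction at 24 h was the same for 125 of the 126 and 19 of the 20. Its share over all probe sets was not counted. The log2 difference of Acot1 was 8.85 at 24 h, of Cyp4a1 5.58, of Ehhadh 4.42, of Fabp1 2.94 and of Cyp1a1 2.63, which did not pass at that time (limma adjusted p = 0.103). Angptl4 was called at 24 h (4.04) and not at 72 h (1.41), and Pc at 72 h (1.70) and not at 24 h (0.29), but neither change with time passed. Of 18048 probe sets 1 (0.00554%) passed the test of the difference between the times (700 at an unadjusted p under 0.05; 4 with the block). It was Abca8a, an ABC transporter, which read 41.38, 30.03 and 35.84 at 24 h against 130.8, 158 and 197.7 in its controls and 120.1, 117.3 and 99.19 at 72 h against 100.8, 75 and 99.98.

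Nifedipine, a calcium channel blocker (156 µM) that the design text lists as a non-carcinogen, shared the controls of 2-nitrofluorene, and the 2 treatments were compared directly at 72 h. 2-Nitrofluorene was higher in 381 probe sets (2.11%) and lower in 196 (1.09%), and with the block 1149 passed. 44 of the 81 genes of the PPARα lists were higher in 2-nitrofluorene and 0 lower. Ehhadh read 82.12, 55.64 and 120.8 with nifedipine, 5.76 ± 0.66 below 2-nitrofluorene on the log2 scale (limma adjusted p = 2.49e-08). Cyp4a1 differed by 5.67, Pdk4 by 4.86 and Fabp1 by 4.69.

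The genes lower in 2-nitrofluorene than in nifedipine included NRF2 targets. Srxn1 differed by −2.57 and read 2419, 1967 and 1964 with nifedipine, Hmox1 differed by −2.41 and read 1166, 1254 and 1126, and Abcc2, an exporter of conjugates, differed by −2.48. Gstp1 read 4828, 4801 and 3845 with nifedipine, and its difference of −1.45 did not pass (limma adjusted p = 0.127). Cyp1a1 was high in both treatments: it read 5272, 3376 and 3669 with nifedipine, 5.03 above control, and the difference between the treatments, −1.17 ± 0.81, did not pass (0.563). Calls between 2-nitrofluorene and nifedipine ranged from 234 (without treated array 3) to 440 with 1 array left out, with 313 without treated array 1, 293 without nifedipine array 1 and 277 without nifedipine array 2.

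Piperonyl butoxide, an insecticide synergist (13.4 µM) listed as a non-genotoxic carcinogen, shared the same controls. Its own effect at 72 h gave 0 calls in limma (196 at an unadjusted p under 0.05). 2-Nitrofluorene was higher in 35 probe sets (0.194%) and lower in 1 (0.00554%), which was Eeig2 (−1.03), and 81 passed with the block. Among the PPARα lists 12 genes were higher, among them Acot1 (7.64), Pdk4 (3.88), Ehhadh (3.75 ± 0.66, limma adjusted p = 0.00114), Cpt1b (2.71), Crat (2.68) and Acsl1 (2.19). Piperonyl butoxide arrays read 979.7, 509 and 1052 for Cyp4a1 and 603.3, 625.7 and 1791 for Fabp1, between the controls and 2-nitrofluorene, and these differences of 2.60 and 2.17 did not pass (limma adjusted p of 0.68 and 0.372). Cyp1a1 read 1523, 1059 and 767.1 with piperonyl butoxide, and the difference did not pass (0.74 ± 0.81, limma adjusted p = 1). The calls came to 15, 58 and 14 without treated arrays 1, 2 and 3 and to 15 without piperonyl butoxide array 2 and 21 without array 3.

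**Figure D5:**
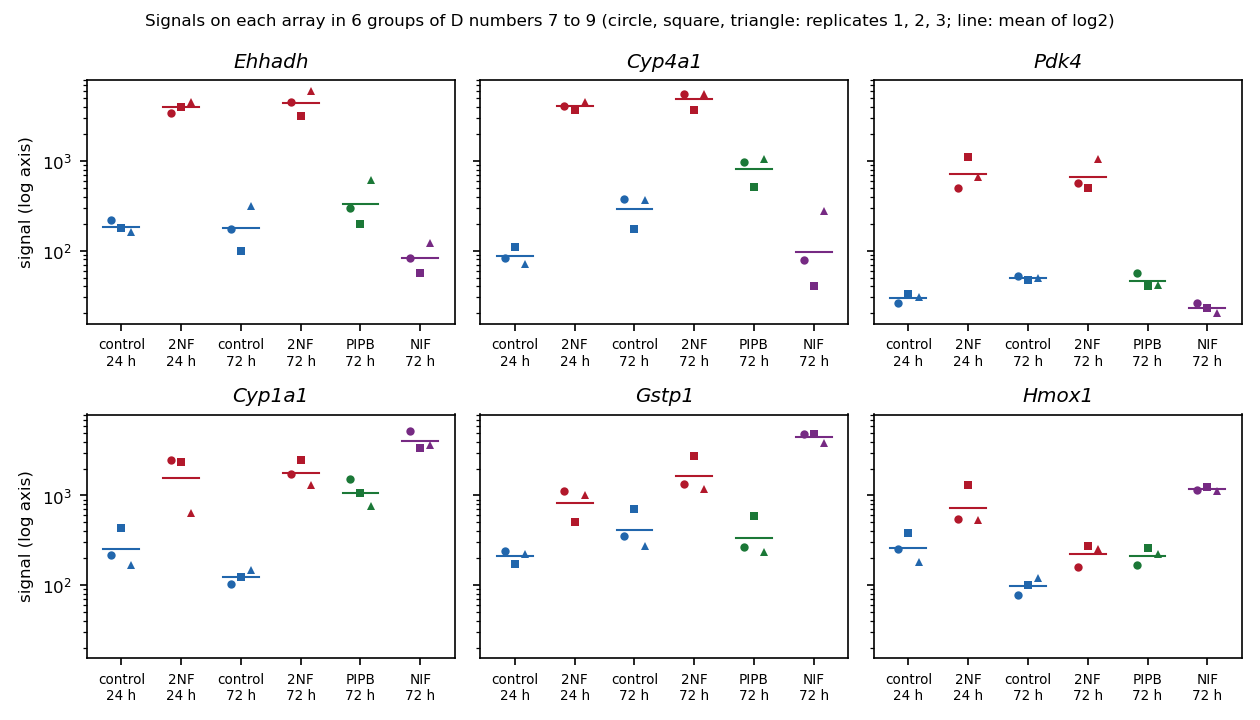
Points are signals on each array, on a log axis, of 6 genes in control and 2-nitrofluorene cells at 24 h and 72 h and in piperonyl butoxide (PIPB) and nifedipine (NIF) cells at 72 h, all with D numbers 7 to 9; lines are means of log2. Ehhadh and Cyp4a1 are far above controls with 2-nitrofluorene at both times, Cyp1a1 is high with all 3 compounds, and Hmox1 is highest with nifedipine.

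Wy-14643 (250 µM) is a synthetic agonist of PPARα, tested in cells with other controls and other D numbers, so the effects of the 2 compounds were compared as a difference of differences at 72 h. The doses differ, and the values are set side by side. The log2 difference from its own control was 9.17 with 2-nitrofluorene and 9.90 with Wy-14643 for Acot1, 4.65 and 2.89 for Ehhadh, 4.08 and 3.50 for Cyp4a1, 3.78 and 2.96 for Fabp1, and 3.69 and 4.82 for Cpt1b. None of these 5 differences passed, which does not show that they are equal: for Ehhadh it was 1.76 with a limma adjusted p of 0.498. Of 18048 probe sets 52 (0.288%) had a higher and 23 (0.127%) a lower effect with 2-nitrofluorene, and of the 81 PPARα list genes 1 was higher (Scp2) and 1 lower (Cyp4b1).

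Cyp1a1 stood first among the differences, 3.87 with 2-nitrofluorene and −2.98 with Wy-14643 (difference 6.84, limma adjusted p = 0.00137). Cyp8b1 differed in effect by 4.26, and Otc, a urea cycle enzyme, by 3.35, Gstm3 by 3.21, Apoc2, an activator of lipoprotein lipase, by 3.06 and Hrg, a plasma glycoprotein, by 3.05, of which Wy-14643 gave values of −2.65, −2.85, −2.15 and −2.92. The count moved with single arrays of both sets. Of the 2-nitrofluorene set, it was 21, 72 and 11 without treated arrays 1, 2 and 3 and 26, 11 and 46 without control arrays 1, 2 and 3. Of the Wy-14643 set, it was 829, 4 and 96 without treated arrays 1, 2 and 3 and 120, 12 and 89 without control arrays 1, 2 and 3. Array 3 of Wy-14643 and its control array 3 had log2 actin ratios of 2.12 and 2.01, against 0.423 to 1.04 on the other arrays of that set. The count was within 1.5 times of 75 with only 1 of these 2 left out. It was 241 without all arrays of D number 3. With only the 4 groups compared in the fit 0 passed, and 397 did with the block.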

How the data were processed

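Biotin-labelled total RNA was measured on Affymetrix rat arrays. Per the submitters' processing notes the authors made the values with MAS5 (no version or settings named), and the deposited table holds them as linear intensity values for 31099 probe sets, each array scaled to a trimmed mean of 99.99 (2% at either end). Columns left unused numbered 0.

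Values were raised to a floor of 3.117 (20th percentile) and put on the log2 scale. Besides 57 control probe sets, those with no group mean reaching the table's median (19.74) were dropped, which left 18048 (58.1%). A rise from the floor is understated, and a gene may pass this filter through its treated group alone. The test was limma 3.58.1 (R 4.3.3): lmFit on 24 group means (48 residual degrees of freedom), eBayes with trend, Benjamini-Hochberg within each comparison, adjusted p under 0.05. It was tested on simulated data. Errors are SE over 3 arrays per group, whose number limits the precision. The shared spread lets noisy groups elsewhere widen an error, and quieter groups elsewhere narrow it.

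Same-numbered arrays of the 2 groups deviated together (correlations of 0.468, 0.552 and 0.456; highest other −0.121), so D numbers pair the arrays, and the blocked value is given where it changes a call. Of all probe sets 20826 have 1 symbol, 436 several and 9780 none. A gene is its probe set of highest mean (10178 genes), and no symbol was assigned otherwise.

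Named were the 20 largest rises and falls with the same sign in all pairs, members of the gene lists, and up to 8 genes per direction in the other comparisons, of which the text gives fewer. The genes compared and the lists were chosen with earlier results of these data known. Promoter windows are RefSeq's, build GRCr8. Alternatives covered floors, filter, normalization, trend, block, arrays in the fit, other controls and each array left out.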

Additional observations from a re-analysis of the deposited data

Results flagged for a closer look

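Abca8a, an ABC transporter gene, was singled out because the effect of 2-nitrofluorene on it differed between the times. The effect at 72 h minus that at 24 h was 2.47 ± 0.41 on the log2 scale (limma adjusted p = 0.00279), from an effect of −2.17 at 24 h, lower on all 3 arrays, and of 0.30 at 72 h. It was called under every alternative that was run for the comparison of times.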

How the results depend on the processing

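Each of the 146 calls of 2-nitrofluorene against control at 72 h kept its direction under all 19 alternatives. Some alternatives, such as the block and no trend, change only the estimate of the spread, so they could not change a direction. The lists' counts ranged from 18 to 66 for the 81 PPARα list genes. The count itself moved with the spread used and with the control arrays compared. It was 305 with the D number as a replicate block, 744 with the arrays of D numbers 7 to 9 alone, 389 with the 6 arrays alone, 590 against the NNK controls, 531 against both control groups and 2833 with the 6 arrays and the block. The last combination, D numbers 7 to 9 with the block, gave 1006 and was chosen after seeing the data. Other floors, log2 of the value plus 16, no filter, quantile normalization and no trend gave 124 to 169. Leaving out 1 array gave 39 to 161 here, 234 to 440 against nifedipine, 14 to 58 against piperonyl butoxide, 1 to 2 for the difference between times and 4 to 829 for the difference from Wy-14643. Against nifedipine the main 577 became 1149 with the block, 2137 with D numbers 7 to 9, 1157 with the groups compared and 2682 with D numbers 7 to 9 and the block. The 36 against piperonyl butoxide became 81, 219, 117 and 332 in the same order, and the 1 between times 4, 42, 14 and 160, and 3 with no filter. The 75 against Wy-14643 became 37 with quantile normalization, 397 with the block, 241 without D number 3 and 0 with the groups compared. The causes were not tested. Beyond the genes named with a blocked value, the replicate block changed no call of a gene named here. Genes near 0 changed sign: Alb to −0.12 (quantile normalization), −0.14 (NNK controls), −0.045 (both controls) and −0.18 to 0.22 (1 array left out), Ccng1 to −0.22 to 0.10 (1 array left out), Cdkn1a to −0.039 (NNK controls), Tiparp to −0.029 to 0.23 (1 array left out), Cyp1b1 to −0.79 (NNK controls), −0.30 (both controls) and −0.24 to 0.63 (1 array left out), and Fgf21 to 0.048 (quantile normalization), 0.82 (NNK controls), 0.40 (both controls) and −0.20 to 0.27 (1 array left out).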

Other observations

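Of the rises outside the lists, 4 genes of amino acid breakdown were chosen after their values were seen, with no list or test of the process behind them. Gcdh, which oxidises glutaryl-CoA from lysine, rose by 0.96, Hibch, of valine breakdown, by 0.95, Aadat, of lysine and tryptophan breakdown, by 1.40 and Aldh4a1, of proline breakdown, by 0.94. Each lost its call when an array was left out, with highest adjusted p of 0.107, 0.109, 0.36 and 0.381 in limma. With no filter Aadat (0.0823) and Aldh4a1 (0.0677) also lost theirs, and Aadat did with quantile normalization (0.0503) and no trend (0.056). Other probe sets of Gcdh (0.52 and 1.11) and of Ppm1k (1.31 and 1.24) did not pass. The Ppm1k probe set at 1.24 did with the block (limma adjusted p = 0.039).

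Lists of other processes held 0 calls in limma, beside 97 rises and 18 falls among all 10178 genes. Over all genes 497 were higher and 511 lower at an unadjusted p under 0.05. Of 37 ATF4 and ER stress genes 2 were higher at an unadjusted p under 0.05, of 20 cholesterol synthesis genes 1 was higher and 2 lower, of 25 acute phase genes 1 higher and 2 lower, and of 26 cytoskeleton genes 1 was lower. The cytoskeleton list had a median of −0.32 with 2 of 26 positive, beside −0.06 over all genes.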
